A study of Solanum lycopersicum with 18 samples.

Results

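The comparison described here is the late step of a time course in tomato leaves, 12 h against 4 h, in the material Micro-TOM-EX (EX). It uses 6 of the 18 libraries of the series, 3 for each time, and every gene whose mean reached 1 FPKM in either group. These are 17107 of the 23348 genes measured. FPKM is the number of sequenced fragments scaled to transcript length and library depth. The other material is Micro-TOM (MT), a dwarf laboratory cultivar, sampled at the same hours. The labels do not explain the suffix EX, and they name no transgene or allele for either material.

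The plants were kept in greenhouse soil under a light period of 16 h, and leaves were taken after 0, 4 or 12 h. The growth protocol puts both materials in the cold for these hours. The stress label reads cold for every EX library, those of 0 h included, and control for every MT library. In EX the 4 h and 12 h groups thus share the label cold and differ in the hours of treatment. The time of day may have moved along with those hours, in which case both cannot be told apart here. Whether replicate libraries are separate plants is not stated. The p-values therefore cover the spread among these libraries and no more, and that spread may be technical. In leaf tissue sampled in bulk, fewer cells of a type and less RNA per cell cannot be told apart.

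Leaves hold most of their nuclear photosynthesis transcripts as mRNA of chlorophyll a/b-binding proteins, which form the antennae of the photosystems, and of the small subunit of Rubisco. In plants these transcripts follow the daily cycle of light and the circadian clock. Transcription factors of the AP2/ERF superfamily, to which CBF and RAV proteins belong, act in responses to cold, drought and ethylene. TCP factors act in leaf growth and cell proliferation.

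Estimated depth was 17400000 to 18000000 fragments per library at 4 h and 17000000 to 18200000 at 12 h. Across genes on the log2(FPKM + 1) scale, libraries correlated at 0.982 to 0.987 within 4 h, 0.967 to 0.98 within 12 h, and 0.961 to 0.978 between the times. The first principal component (37.3% of the variance) placed the 4 h libraries at -28.4 to -10.6 and the 12 h libraries at 9.67 to 29.4. The second (28.7%) set library 1 of 12 h apart at -38.3. Of 17 leaf mesophyll markers none was at 0 in any of these libraries. Of 13 markers of fruit, flower, pollen and root, the root marker PT4 and the fruit markers E8 and ACS4 were listed at 0 in all 6. The summed level of these 13 genes was 45.36 to 68.41 FPKM at 4 h and 47.31 to 74.31 at 12 h, of which Psy1, a carotenoid gene that leaves also express, held most.

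From 4 h to 12 h, 63 genes of EX leaves passed an adjusted p of 0.05 (0.368% of the genes tested). At 12 h 37 of them were higher (0.216%) and 26 were lower (0.152%). All differences below are differences of mean log2(FPKM + 1), which understates the change of low genes, tested with limma and adjusted by the Benjamini-Hochberg method. The median difference over all genes tested was 0.03. Among the called genes 31 rose and 16 fell by at least 1 log2 unit. The smallest rise was 0.69 and the smallest fall was 0.63. In all 63 genes the 3 libraries of 12 h lay on one side of the 3 libraries of 4 h, as they did in 22.1% of all genes tested.

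Without adjustment, 2624 genes had p under 0.05 (15.3%), 8.49% of the genes tested higher and 6.85% lower. The set of called genes changed when 1 library was left out, in fits that also have less power. Without library 1, 2 or 3 of 4 h, 9, 15 and 9 genes were called, of which 9, 12 and 9 were among the 63. Without library 1, 2 or 3 of 12 h, 61, 33 and 19 genes were called, of which 28, 22 and 14 were among the 63. A fit with all 18 libraries, which share 1 spread per gene, called 36 genes (25 higher, 11 lower), 26 of them among the 63.

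**Figure D1:**
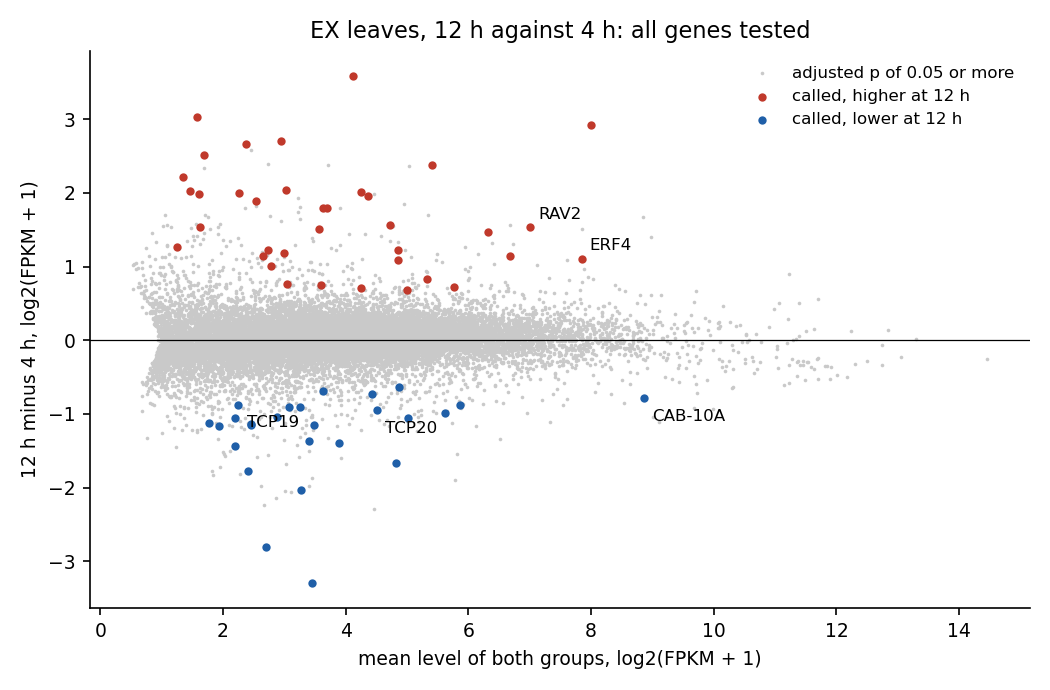
Difference between 12 h and 4 h in EX leaves (y axis, log2(FPKM + 1)) against the mean level of both groups (x axis, same scale). Each point is 1 of the 17107 genes tested. The 37 red points are genes called higher at 12 h, the 26 blue points genes called lower, and the 5 called genes with a symbol are labelled.

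Of the 63 called genes, 5 have a symbol. They are RAV2, ERF4, TCP20, TCP19 and CAB-10A. Of all 63 genes, 52 are listed as protein-coding in the reference table, 1 is a long non-coding RNA (LOC101256572), 1 is a pseudogene (LOC101252506), 6 are transcript models that the authors added, and 3 known genes have no type given there. The table used here gives no product names, so the genes known only by a LOC number are described by their values alone.

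A group of 9 genes kept its call in each of the 6 fits with 1 library fewer and in the other 9 alternatives. These are LOC104648015, LOC101252506, LOC101254072, LOC104644302, BGI_novel_G000067, LOC104645435 and LOC101250425, which rose, and LOC101255675 and LOC101258980, which fell. They include the 4 highest and the 2 lowest differences among called genes that reach 5 FPKM in either group mean.

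LOC101254072 (chromosome 3, 69312367 to 69313309, minus strand) combined a large rise with the highest level among the genes that rose. It stood at 81.2, 104 and 89.9 FPKM at 4 h and at 618, 711 and 785 FPKM at 12 h. Every 12 h library was thus far above every 4 h library. The difference of 2.93 log2 units (SE 0.13, limma adjusted p = 0.000899) corresponds to a 7.67-fold higher mean, 704.8 ± 83.6 against 91.9 ± 11.8 FPKM (SD, n = 3 each). At 0 h the gene was at 139, 153 and 94.4 FPKM, the lowest within the range of 4 h and the others above it.

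LOC104648015 (chromosome 6, 46333518 to 46335070, minus strand) had the largest rise on this scale, an order that depends on the pseudocount. With a pseudocount of 0.1 its difference was 3.86 and that of LOC101252506 was 5.90, and with a pseudocount of 5 its difference was 2.82 and that of LOC101254072 was 2.87. Its libraries stood at 3.18, 5.22 and 3.51 FPKM at 4 h and at 41.8, 65.7 and 70.24 FPKM at 12 h, with no overlap (log2 3.59, SE 0.23, limma adjusted p = 0.00186; 14.9-fold between means). At 0 h it was lower still, between 0.82 and 1.21 FPKM.

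LOC101252506 (chromosome 7, 60588840 to 60589573, plus strand), the pseudogene, was listed at 0.10 FPKM in 1 library of 4 h and at 0 in the other two. At 12 h it was at 5.56, 7.94 and 9.22 FPKM, clear of the 4 h values (log2 3.03, SE 0.19, limma adjusted p = 0.00168). No fold is given, since it was at 0 in 4 h libraries.

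LOC104644302 (chromosome 1, 97300132 to 97344326, minus strand) stood at 1.4, 2.86 and 1.89 FPKM at 4 h and at 16.3, 20.9 and 18.4 FPKM at 12 h, again without overlap (log2 2.70, SE 0.19, limma adjusted p = 0.00305). This long locus overlaps 5 other gene models on the same strand, so reads may be split between them and its level is uncertain. Of these, BGI_novel_G000067 (97300132 to 97315180) was called too. It went from 1.61, 2.23 and 2.18 FPKM to 9.23, 11.9 and 9.50 (log2 1.90, adjusted p = 0.00485). LOC104645434 (log2 1.62, adjusted p = 0.0863), LOC109118704 (1.52, adjusted p = 0.0717) and BGI_novel_G000066 (0.99, adjusted p = 0.0769) were not called, with 12 h libraries above the 4 h libraries in each. BGI_novel_G000068 overlapped between the groups (-0.24, adjusted p = 0.489).

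LOC104645435 (chromosome 1, 97399855 to 97400544, plus strand), further along chromosome 1, rose from 15.3, 22.9 and 14.7 FPKM to 82.9, 95.2 and 107 FPKM (log2 2.39, limma adjusted p = 0.00462). LOC101250425 (chromosome 7, 60708978 to 60710439) was at 3.37, 2.88 and 2.89 FPKM at 4 h and at 15.2, 14.3 and 17.3 FPKM at 12 h (log2 2.03, adjusted p = 0.00158). In both genes the groups stood well apart, and both overlap 1 other gene model.

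On this scale the largest fall was that of LOC101255675 (chromosome 12, 66784205 to 66788026, minus strand). It stood at 26.5, 33.3 and 39.6 FPKM at 4 h and at 1.99, 2.15 and 3.34 FPKM at 12 h. Every 12 h library lay far below every 4 h library, and the ratio of the means was 13.3 (log2 -3.29, SE 0.19, limma adjusted p = 0.00158). The gene overlaps LOC101255076 on the same strand (log2 -0.44, adjusted p = 0.118) and LOC101255379 on the opposite strand (-0.31, adjusted p = 0.506), neither of which was called. Its level is uncertain to the extent that reads are shared.

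LOC101258980 (chromosome 8, 63176422 to 63178587, plus strand) fell from 18.2, 15.0 and 15.5 FPKM to 1.38, 1.90 and 1.15 FPKM, a clear separation (log2 -2.80, SE 0.15, limma adjusted p = 0.00142; the means differ 10.98-fold). At 0 h it had been highest, at 61.2, 47.4 and 119 FPKM. LOC101260191 (chromosome 2, 51677386 to 51678286) followed the same order. Its 0 h libraries ranged from 37.3 to 57.0 FPKM, those of 4 h stood at 7.85, 9.97 and 8.70, and those of 12 h fell to 1.73, 2.39 and 1.56 (log2 -1.77, adjusted p = 0.00846). Its call was lost without any 1 of the 4 h libraries (adjusted p from 0.0523 to 0.0828).

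LOC101251195 (chromosome 6, 49485756 to 49487059) was at 14.4, 24.8 and 17.0 FPKM at 4 h and at 3.25, 4.89 and 3.2 FPKM at 12 h (log2 -2.03, limma adjusted p = 0.0268). It lost its call in every fit with 1 library fewer except the one without library 2 of 12 h (adjusted p from 0.0513 to 0.124), and with all 18 libraries (0.055). Its 0 h level, 6.65 to 9.33 FPKM, lay between the other two times.

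**Figure D2:**
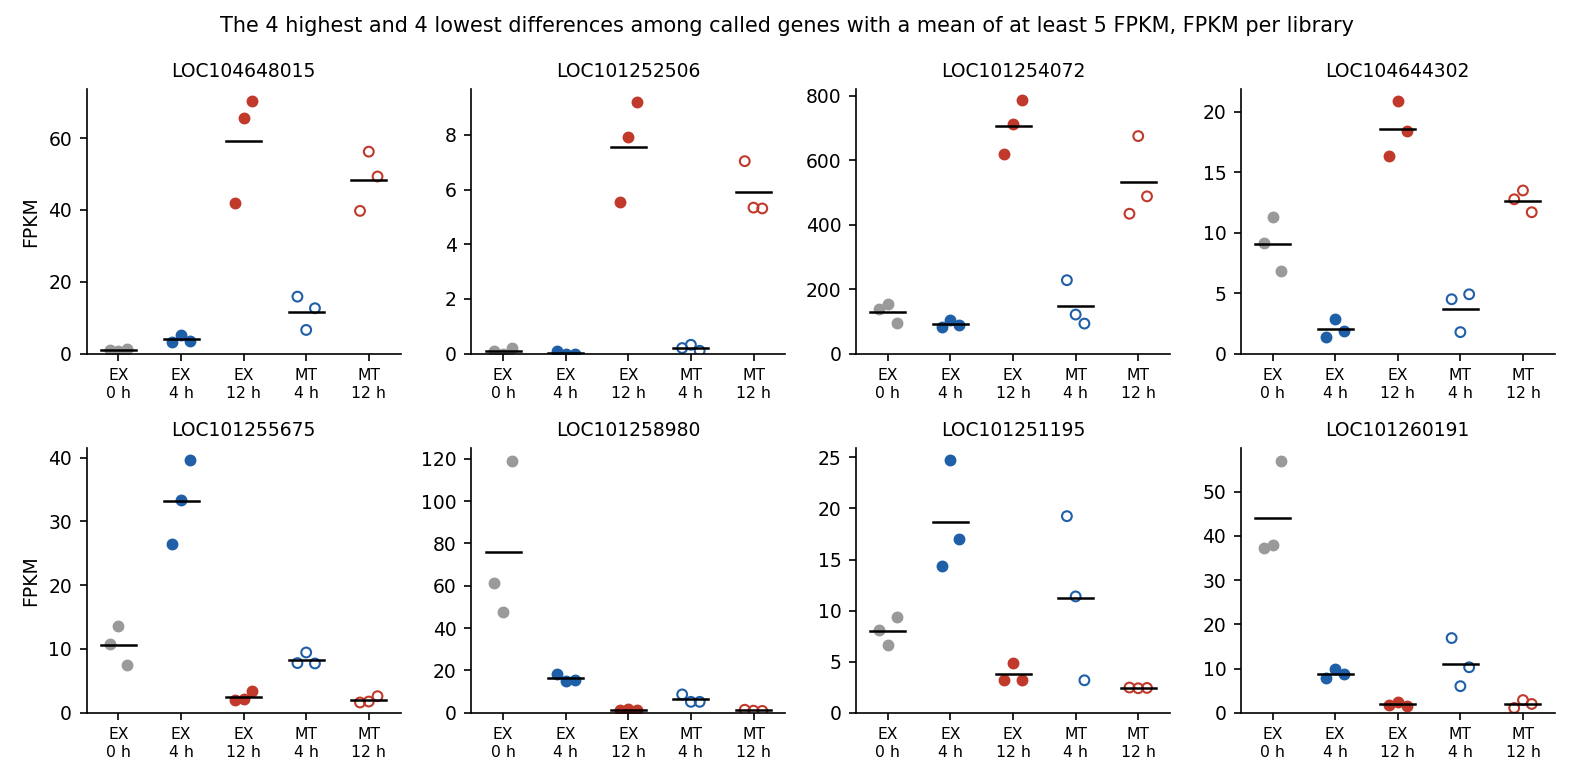
FPKM per library (y axes, each from 0) of the 4 genes with the highest and the 4 with the lowest difference among called genes that reach 5 FPKM in either group mean. Filled points are EX libraries, open points MT libraries, and lines are means of 3 libraries. In every panel the EX libraries of 4 h and 12 h do not overlap, and the MT libraries of 4 h and 12 h lie in the same order.

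Transcription factor genes made up 4 of the 5 called genes with a symbol. The 2 lists of factors described below hold 51 and 64 of the 1516 tested genes with a symbol. Factor genes outside these lists were not counted, so no share is set beside the 4. RAV2 (chromosome 5, 3986850 to 3988391), which encodes a factor with an AP2 and a B3 DNA-binding domain, stood at 93.1, 50.5 and 83.3 FPKM at 4 h. At 12 h it was at 221, 221 and 199.99 FPKM, above every 4 h library. The rise was 1.54 log2 units (SE 0.21, limma adjusted p = 0.0462), and the means were 75.6 ± 22.3 and 214 ± 12.4 FPKM (SD, n = 3 each). At 0 h RAV2 had stood at 143 to 257 FPKM, so its 4 h libraries were the lowest of the 3 times in EX. The call was lost in each fit with 1 library fewer except the one without library 2 of 4 h (adjusted p from 0.0729 to 0.158) and after median-of-ratios scaling (0.0582).

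ERF4 (chromosome 5, 62370182 to 62371040), an ethylene response factor gene, was at 158, 161 and 147 FPKM at 4 h and at 306, 322 and 382 FPKM at 12 h. The groups did not overlap, and the mean was 2.17-fold higher at 12 h (log2 1.11, SE 0.11, limma adjusted p = 0.0166). Leaving out any 1 of the 4 h libraries ended the call (adjusted p from 0.0713 to 0.124), as did the fit with all 18 libraries (0.684), where the 0 h libraries of ERF4 ranged from 48.3 to 327 FPKM.

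TCP20 and TCP19 fell. TCP20 (chromosome 8, 63484935 to 63486344) was at 26.8, 35.9 and 29.7 FPKM at 4 h and at 15.9, 14.1 and 16.0 FPKM at 12 h (log2 -0.95, SE 0.13, limma adjusted p = 0.0449). TCP19 (chromosome 9, 1504908 to 1505932) was at 5.63, 5.86 and 4.82 FPKM at 4 h and at 2.51, 2.64 and 2.37 FPKM at 12 h (log2 -0.87, SE 0.12, adjusted p = 0.0462). Neither overlapped between the times. They differed at 0 h, where TCP20 was at 4.10 to 10.8 FPKM, below both later times, and TCP19 at 6.67 to 7.75 FPKM, above both. Both calls were lost in all 6 fits with 1 library fewer, at adjusted p from 0.0622 to 0.19 for TCP20 and from 0.0638 to 0.224 for TCP19, and after median-of-ratios scaling (0.0555 and 0.051). With all 18 libraries the adjusted p was 0.471 for TCP20 and 0.00661 for TCP19.

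The wider families moved little as lists. Of 51 ERF-type genes tested, 2 were called higher (RAV2 and ERF4, against 0.216% of all genes) and 0 lower. Their median difference was 0.03, the same as over all genes, and 7 had all 12 h libraries above the 4 h libraries (12.4% of all genes did). JERF1 (453 to 693 FPKM between means, log2 0.62, limma adjusted p = 0.0689) and PTI4 (27.97 to 55.0, log2 0.93, adjusted p = 0.0979) came closest without passing. JERF1 overlaps many other gene models and is uncertain. Of 64 genes for WRKY, MYB, NAC, MADS, TCP and related factors, 2 were called lower (TCP20 and TCP19, against 0.152% of all genes) and 0 higher, with a median of 0.11. WRKY80, at 50.7, 45.0 and 64.0 FPKM and then 25.0, 27.2 and 15.2 FPKM, missed the threshold (log2 -1.24, adjusted p = 0.0914).

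**Figure D3:**
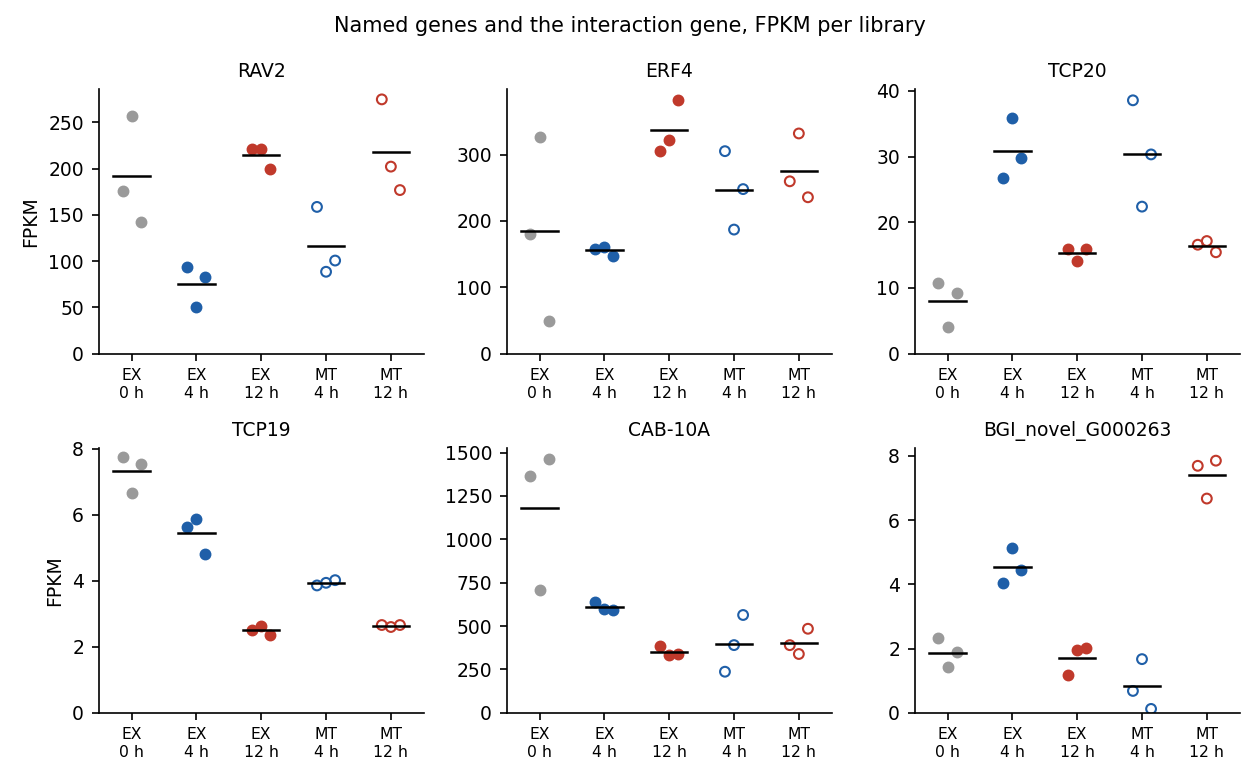
FPKM per library (y axes, each from 0) of the 5 called genes with a symbol and of BGI_novel_G000263, the gene whose step differed between EX and MT. Filled points are EX libraries, open points MT libraries, and lines are means of 3 libraries. RAV2 and ERF4 are higher and TCP20, TCP19 and CAB-10A lower at 12 h than at 4 h in EX.

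The fifth gene with a symbol, CAB-10A (chromosome 1, 93326951 to 93328081), is a gene for an antenna protein that binds chlorophyll a and b. It fell from 636, 599 and 590 FPKM at 4 h to 383, 332 and 340 FPKM at 12 h. The 12 h libraries were all lower, by 0.79 log2 units (SE 0.10, limma adjusted p = 0.0361), from a mean of 609 ± 24.1 to 352 ± 27.2 FPKM (SD, n = 3 each). At 0 h it was at 706 to 1464 FPKM. The call was lost without any 1 library except library 1 of 12 h (adjusted p from 0.0769 to 0.179), after median-of-ratios scaling (0.0555) and with all 18 libraries (0.672).

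CAB-10A was the 1 member called among 23 photosystem and light-harvesting genes, against 0.152% of all genes called lower. The other 22 were not called, yet 22 of the 23 had a negative difference (44.8% of all genes did). In 20 of the 23 all 12 h libraries lay below all 4 h libraries, as in 9.67% of all genes, and the median difference was -0.39. These genes share a regulation by light and many near-identical sequences, so they are not independent of each other, and reads of the CAB genes may be split between copies. After median-of-ratios scaling the median was -0.41.

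By role, the 15 chlorophyll a/b-binding genes all had 12 h libraries below the 4 h libraries, with differences from -1.11 to -0.29 and a median of -0.54. CAB12 went from 290, 180 and 238 FPKM to 135, 79.7 and 113 FPKM (log2 -1.11, limma adjusted p = 0.113). The abundant CAB1B went from 7764, 8015 and 7394 FPKM to 6143, 5640 and 6557 FPKM (log2 -0.34, adjusted p = 0.252). The separation was thus complete but the size small for the most abundant member. CAB5, at 1062, 1102 and 1096 FPKM and then 787, 627 and 581 FPKM, came near the threshold (log2 -0.72, adjusted p = 0.0871).

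The 4 genes of the oxygen-evolving complex, which splits water at photosystem II (OEE1, PSBO, PSBP and PsbQ), had differences from -0.35 to -0.28, again with no overlap and no call. PSBS, needed for the quenching of excess light energy, was at 235, 174 and 180 FPKM and then at 165, 149 and 119 FPKM (log2 -0.44, limma adjusted p = 0.278). PSBR (log2 0.02), the plastocyanin gene PETE (-0.07) and ELIP, an early light-induced protein gene (-0.28), overlapped between the times.

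Summed over the 23 genes, the level was 64931, 64172 and 60609 FPKM at 4 h and 52556, 48615 and 49309 FPKM at 12 h. That was 7.74 to 8.14% of all FPKM of a library at 4 h and 6.19 to 6.58% at 12 h. At 0 h the sums were 76930, 51510 and 84900 FPKM, so 1 library of 0 h lay within the range of 12 h. The 0 h mean was above the 4 h mean in 17 of the 23 genes and above the 12 h mean in 21. No share over all genes is given for these positions. The summed leaf mesophyll markers, 15 of whose 17 genes belong to the same list, were at 65940 to 73760 FPKM at 4 h and 49500 to 58210 at 12 h. Their 2 other members, small subunit genes of Rubisco, overlapped between the times (rbcS1, log2 -0.33, limma adjusted p = 0.382; RBCS4, -0.26, adjusted p = 0.428).

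**Figure D4:**
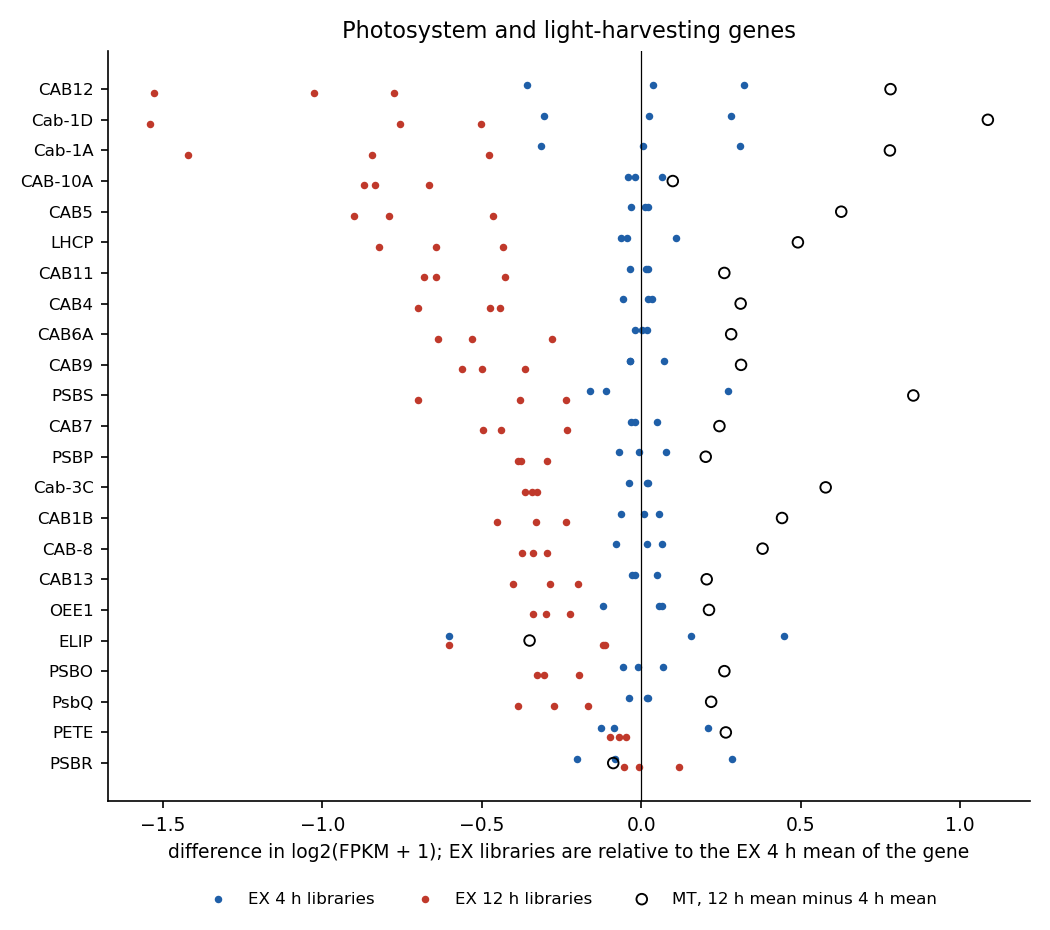
Difference in log2(FPKM + 1) (x axis) of 23 photosystem and light-harvesting genes. Blue points are the EX libraries of 4 h and red points those of 12 h, each relative to the mean of the EX 4 h libraries, and open circles are the difference between the MT means of 12 h and 4 h. In 20 genes the red points lie left of all blue points, whereas 21 of the open circles lie right of 0.

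Pigment and carbon genes showed smaller shifts. Over all genes tested, 8.49% were higher and 6.85% lower at an unadjusted p under 0.05 by limma. Of 32 chlorophyll and carotenoid genes limma called 0 (5 lower at an unadjusted p under 0.05), and the median was -0.12. In 7 of the 32 the 12 h libraries lay below the 4 h libraries (9.67% of all genes) and in 0 above (12.4%). POR, which reduces protochlorophyllide on the way to chlorophyll, was at 591, 390 and 495 FPKM and then at 319, 193 and 317 FPKM (log2 -0.85, limma adjusted p = 0.181). Calvin cycle genes (11 tested) had 0 calls, 1 higher at an unadjusted p under 0.05 and a median of -0.09. Starch and sucrose genes (22 tested) had 0 calls, 1 higher and 3 lower at an unadjusted p under 0.05 and a median of 0.04, with LIN8, an invertase gene, at 10.1, 6.71 and 9.15 FPKM and then at 3.21, 4.75 and 3.83 FPKM (log2 -0.97, adjusted p = 0.0948). Nitrogen assimilation genes (15 tested, 0 called, 4 higher and 1 lower at an unadjusted p under 0.05, median 0.12) included GLB1, a non-symbiotic hemoglobin gene, at 25.0, 18.9 and 23.6 FPKM and then at 35.4, 34.5 and 35.1 FPKM (log2 0.63, adjusted p = 0.0967). Genes of GABA metabolism and phosphoenolpyruvate carboxylase (16 tested) had 0 calls, 1 higher and 2 lower at an unadjusted p under 0.05 and a median of 0.11.

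Among hormone genes limma called none. The ethylene list (25 tested) had a median of 0.24, and 5 of its 25 differences were negative (44.8% over all genes). At an unadjusted p under 0.05, 8 of the 25 were higher (8.49% of all genes) and 0 lower (6.85%). All 12 h libraries lay above the 4 h libraries in 7 (12.4% of all genes) and below them in 0 (9.67%). ACS6, whose enzyme makes the ethylene precursor ACC, was at 19.8, 22.8 and 21.3 FPKM and then at 39.6, 44.2 and 62.6 FPKM (log2 1.13, limma adjusted p = 0.0573). ETR4, an ethylene receptor gene, was at 1.08, 0.92 and 1.08 FPKM and then at 2.29, 2.07 and 2.55 FPKM (log2 0.70, adjusted p = 0.0967). Neither overlapped between the times, and neither passed. Without library 1 of 4 h the median of the list was 0.13.

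The auxin list (62 tested, 7 higher and 4 lower at an unadjusted p under 0.05, median -0.02) was close to the background, with 12 h libraries above the 4 h libraries in 7 genes (11.3% of the list, 12.4% of all genes) and below them in 6 (9.68% and 9.67%). Its 3 highest differences were those of IAA3, IAA4 and IAA2, members of the Aux/IAA family of auxin response repressors. IAA4 was at 102, 157 and 142 FPKM and then at 254, 304 and 287 FPKM (log2 1.09, limma adjusted p = 0.0635). IAA3 (log2 1.09, adjusted p = 0.101) and IAA2 (1.06, adjusted p = 0.104) were similar in size. Jasmonate genes (19 tested) had a median of -0.15, abscisic acid genes (11) one of 0.05, and gibberellin and cytokinin genes (28) one of 0.07. Negative differences made up 78.9%, 45.5% and 32.1% of these lists, against 44.8% over all genes. At an unadjusted p under 0.05 the 3 lists held 1 higher and 2 lower, 1 higher and 1 lower, and 2 higher and 0 lower genes. Over all genes tested 8.49% were higher and 6.85% lower at that threshold.

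Cold and drought factors (17 tested) had 0 calls by limma, 0 genes at an unadjusted p under 0.05 and a median of -0.06, and 0 of them separated the times in either direction. CBF1 (chromosome 3, 3714712 to 3715582), a regulator of cold-responsive genes, was at 27.4, 19.7 and 28.7 FPKM at 4 h and at 14.1, 77.8 and 11.9 FPKM at 12 h. One 12 h library was thus above and the others below all 4 h libraries (log2 -0.06, SE 0.63, limma adjusted p = 0.972). Without that library the difference was -0.89 (adjusted p = 0.156). At 0 h CBF1 was at 91.6, 131 and 137 FPKM. Clock, flowering and photoreceptor genes (20 tested) had 0 calls, 1 lower at an unadjusted p under 0.05 and a median of 0.05, which was 0.21 without library 1 of 12 h.

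Each of the other 11 lists had 0 calls by limma. Medians were 0.04 for cell wall loosening (42 tested), -0.02 for aquaporins (14), 0.02 for heat shock proteins and chaperones (19), 0.24 for dehydrins and ASR proteins (11) and 0.02 for antioxidant enzymes (28). They were -0.13 for sterol and glycoalkaloid synthesis (28), 0.03 for defence proteins and wounding (28), 0.31 for phenylpropanoids (13), -0.003 for the cell cycle (22) and 0.01 for ion transporters (21). The 4 tested markers of other tissues had a median of 0.14. Some list medians shifted when 1 library was left out. Without library 1 of 12 h that of the dehydrins and ASR proteins was -0.10 and that of the phenylpropanoid genes 0.04, and without library 1 of 4 h they were 0.10 and 0.14. Of all 26 lists, 15 had a median that turned its sign in at least 1 fit with 1 library fewer. They include lists whose median was near 0 from the start, such as the cell cycle and the aquaporins. At an unadjusted p under 0.05 these 11 lists held at most 10 genes each, the 10 being 5 higher and 5 lower cell wall genes. That was 11.9% of the cell wall list in each direction, against 8.49% higher and 6.85% lower over all genes. Some shorter lists held larger shares in 1 direction. Defence genes stood at 10.7% higher and 21.4% lower, and sterol and glycoalkaloid genes at 10.7% and 17.9%. Phenylpropanoid genes stood at 23.1% higher and 0% lower, and dehydrins and ASR proteins at 18.2% and 0%. In the defence list p69c, a subtilisin-like protease gene, was closest to a call, at 10.4, 9.25 and 10.8 FPKM and then at 5.16, 4.38 and 6.05 FPKM (log2 -0.85, adjusted p = 0.0635). TSI-1, a pathogenesis-related gene, stood at 1.01, 1.42 and 2.79 FPKM and then at 8.66, 12.4 and 4.89 FPKM (log2 1.79, adjusted p = 0.0967).

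The 2 further genes that the rule on abundance names both fell. LOC101261409 (chromosome 5, 1896385 to 1897249) went from 74.0, 87.1 and 74.1 FPKM to 41.6, 36.6 and 48.1 FPKM (log2 -0.89, limma adjusted p = 0.0479). LOC101267943 (chromosome 10, 57396644 to 57398042) went from 76.3, 64.4 and 63.5 FPKM to 33.7, 36.0 and 31.4 FPKM (log2 -0.99, adjusted p = 0.0268). The groups of both genes were apart, but the first lost its call in all 6 fits with 1 library fewer (adjusted p from 0.0697 to 0.201) and the second in 4 of them, without any 1 of the 4 h libraries or library 3 of 12 h (0.0844 to 0.124). With all 18 libraries neither was called (0.42 and 0.795), nor was the first after median-of-ratios scaling (0.0625).

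Set against 0 h, whose libraries entered neither the choice nor the test, the 63 genes did not share 1 course. The 0 h mean lay between those of 4 h and 12 h in 24 genes. In 27 genes it lay beyond the 4 h mean, so that the step from 4 h to 12 h carried on from 0 h in 1 direction, as in LOC104648015 and LOC101258980. These were 20 of the 37 genes that rose and 7 of the 26 that fell. In the other 12 genes (1 that rose and 11 that fell) the 0 h mean lay beyond the 12 h mean, as in TCP20. No test was made of these positions, no share over all genes is given, and the genes were chosen on their 4 h and 12 h values.

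The MT libraries of 4 h and 12 h, which did not enter the choice of the 63 genes, give the same step in the other material. Of the 63 genes 54 had the same sign in MT, 30 of the 37 that rose and 24 of the 26 that fell in EX, against 45.6% of all genes tested. Without library 1 of MT at 4 h the count was 60, against 53.3% of all genes. In 43 of the 63 the MT libraries of both times did not overlap and lay in the same order as in EX (24 higher, 19 lower). Over all genes 5.89% were higher and 11.3% were lower in MT without overlap. Across the 17107 genes the steps in EX and MT correlated at r = 0.08, a description across genes, which are not independent replicates.

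In MT the 8 genes plotted above for their large steps kept the same order of times. LOC101254072 stood at 227, 121 and 92.8 FPKM at 4 h and at 433, 674 and 487 FPKM at 12 h in MT. LOC104648015 went from 15.9, 6.57 and 12.6 FPKM to 39.8, 56.3 and 49.3 FPKM. LOC101255675 went from 7.79, 9.45 and 7.73 FPKM to 1.61, 1.76 and 2.60 FPKM. In these 3 genes the MT libraries did not overlap either, and the step was smaller than in EX, on whose values the genes were chosen. By adjusted p, however, limma called just 1 of 17107 genes in MT (0.00585%), LOC101252506 (log2 2.51, adjusted p = 0.0291), while 45 of the 63 genes had an unadjusted p under 0.05 with the same sign (10.2% of all genes had one in either direction). The median gene had an SD on the log2 scale of 0.27 at 4 h and 0.167 at 12 h in MT, against 0.128 and 0.176 in EX, so MT was the wider at 4 h and not at 12 h.

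**Figure D5:**
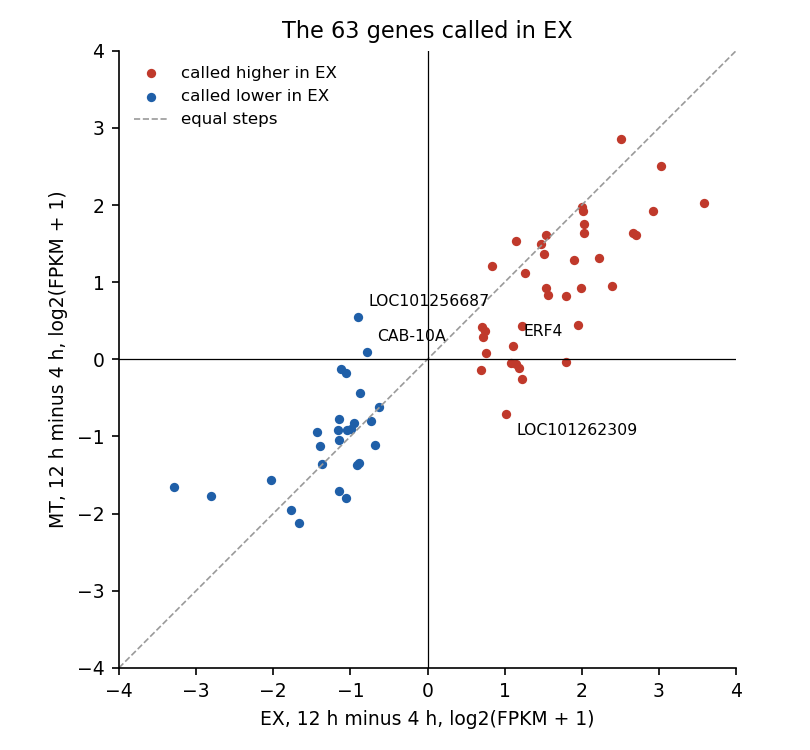
Difference between 12 h and 4 h in MT (y axis) against the same difference in EX (x axis), both in log2(FPKM + 1), for the 63 genes called in EX. Red points rose and blue points fell in EX, and the dashed line marks equal steps. Of these genes 54 have the same sign in both materials, and LOC101262309 and LOC101256687 have opposite signs with no overlap between the libraries of either material.

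Whether the step differed between EX and MT was tested as an interaction over 12 libraries. It passed for 1 of 17439 genes (0.00573%), BGI_novel_G000263 (chromosome 5, 22120996 to 22124567), a transcript model without annotation. In EX it was at 4.04, 5.14 and 4.43 FPKM at 4 h and at 1.17, 1.95 and 2.02 FPKM at 12 h, and in MT at 0.68, 1.67 and 0.12 FPKM and then at 7.69, 6.67 and 7.85 FPKM. It moved in opposite directions, with no overlap in either material (EX minus MT log2 -3.33, SE 0.37, limma adjusted p = 0.0299). The step in EX alone was not called (log2 -1.04, adjusted p = 0.0717), and the interaction was lost in 10 of 12 fits with 1 library fewer, those without any EX library, library 1 of MT at 4 h or any MT library of 12 h (adjusted p from 0.0734 to 0.156). None of the 63 genes called in EX passed the interaction test by limma. Of them 27 had an unadjusted p under 0.05 (13.6% of all genes did). The 63 were chosen on the step in EX, which is itself part of this difference. Without library 2 of MT at 4 h, 75 genes passed the interaction test.

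In MT the light-harvesting genes had the opposite sign. So did the medians of other lists, such as jasmonate (0.30 in MT, -0.15 in EX), ethylene (-0.15, 0.24) and chlorophyll and carotenoids (0.18, -0.12). That of the ERF factors (0.05, 0.03) kept its sign. The median difference of the 23 photosystem and light-harvesting genes was 0.28 in MT against -0.39 in EX. Of these 23 differences 21 were positive in MT (7302 of all 17107 were). All 12 h libraries lay above the 4 h libraries in 2 of the 23 (5.89% of all genes) and below them in 0 (11.3%). The sums were 36990, 50130 and 53740 FPKM at 4 h and 52880, 51760 and 58840 FPKM at 12 h, so library 1 of MT at 4 h was the lowest and the other libraries overlapped. Without that library the median in MT was 0.07, with 19 of 23 differences positive. For single genes the difference between the materials was not called (0 of 23, smallest adjusted p = 0.159), although 17 of 23 had an unadjusted p under 0.05, against 13.6% of all genes. CAB-10A itself stood at 237, 390 and 564 FPKM at 4 h and at 390, 339 and 484 FPKM at 12 h in MT, with the times overlapping (EX minus MT log2 -0.89, adjusted p = 0.331). ERF4 also overlapped in MT, at 305, 187 and 248 FPKM and then at 260, 332 and 236 FPKM (EX minus MT log2 0.93, adjusted p = 0.24). RAV2 (0.61, adjusted p = 0.471), TCP20 (-0.13, adjusted p = 0.839) and TCP19 (-0.43, adjusted p = 0.3) did not overlap between the times in MT and had the same sign as in EX.

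Called genes lay on all 12 chromosomes, with at most 11 on one of them (chromosome 5). These 11 include BGI_novel_G000253 and BGI_novel_G000254, both listed at 6235512 to 6238776 on the minus strand, so 1 locus may be counted more than once. Among all called genes, 12 overlap another gene model, and their levels are uncertain. A trio of neighbours on chromosome 11, LOC101268244, LOC101244143 and LOC101244440, lies within 4702031 to 4708272, and all 3 rose. LOC101268244 went from 0.35, 0.07 and 0.07 FPKM to 3.76, 3.18 and 6.85 FPKM (log2 2.22, limma adjusted p = 0.0317). LOC101244143 went from 0.77, 0.64 and 1.57 FPKM to 10.53, 6.94 and 19.7 FPKM (log2 2.66, adjusted p = 0.0402). LOC101244440 went from 0.59, 0.34 and 0.59 FPKM to 5.15, 2.99 and 7.57 FPKM (log2 1.99, adjusted p = 0.0462). In each, library 3 was the highest and library 2 the lowest of the 12 h libraries. Their calls were kept in 2, 1 and 1 of the 6 fits with 1 library fewer. All 3 were lost without any 1 of the 4 h libraries or library 1 of 12 h, and LOC101244143 and LOC101244440 also without library 3 of 12 h. Over all alternatives the largest adjusted p was 0.146, 0.2 and 0.2. LOC101244143 and LOC101244440 lie 369 bases apart on opposite strands. This trio was named after its values were seen, and whether the genes share sequence was not tested.

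The authors' deposited table gives the same sign as here for all 63 genes and a q-value under 0.05 for each. A q-value under 0.05 stands in the authors' deposited table for 10988 of the 17107 genes (64.2%), 6343 higher and 4645 lower at 12 h. The sources used here do not give the steps behind that table.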

How the data were processed

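RNA of tomato leaves was sequenced in 18 libraries. Per the labels' protocols, Trizol was used to isolate total RNA, and library construction was for BGI500. The deposited values are FPKM per gene and library, rounded to 2 decimals, per the file headers. For EX at 12 h against 4 h the authors also deposited q-values, p-values and a log2 ratio per gene, per the file headers. Among the tools in the submitters' processing notes, whose roles are not stated, are RSEM 1.2.12, HISAT2 2.0.4, DESeq2 1.4.5 and Bowtie2 2.2.5. No source used here names the genome build, although the deposited chromosome names are versioned sequence identifiers. Coordinates are those of the deposited table. Gene names came from a RefSeq table of another assembly, which held 21649 of the 23348 identifiers. Whether counting used strand is not stated. Levels of overlapping genes and near-identical family members are thus uncertain.

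No counts were used. In genes with 1 transcript of 350 to 1500 bases, 91.6 to 94.3% of low FPKM values lay within 0.1 of a whole number of fragments, which gave the depth estimate. Genes whose mean reached 1 FPKM in either EX group were fitted as log2(FPKM + 1) with limma 3.58.1 (R 4.3.3), with a mean-variance trend over the 6 libraries and two-sided p-values adjusted by the Benjamini-Hochberg method (threshold 0.05; prior degrees of freedom 3.38). The interaction with MT used 12 libraries. With 3 against 3 libraries, an exact permutation test of a single gene cannot go below 0.1, so only the fit across genes was used.

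The comparison, the 26 gene lists and the naming rule were chosen with earlier results of these data known. The rule names called genes without overlap between groups: those with a symbol, the 4 highest and 4 lowest differences (each with a mean of at least 5 FPKM), the 3 most abundant per direction and up to 2 per list and direction. It also names called interaction genes with at least 5 FPKM and CBF1. Lists are described by counts and medians with no test. The alternatives were other libraries in the fit, pseudocounts of 0.1 and 5, median-of-ratios scaling, other filters, robust moderation, a replicate block and leaving out each library. Promoter motifs were not searched.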

Additional observations from a re-analysis of the deposited data

Results flagged for a closer look

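Of the genes described above, 3 moved in opposite directions in EX and MT between 4 h and 12 h, with no overlap between the libraries of either material. For BGI_novel_G000263 the EX minus MT difference was -3.33 log2 units, and it was the 1 gene for which limma's interaction test passed (adjusted p = 0.0299).

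LOC101262309 (chromosome 5, 5246297 to 5247746) was at 3.63, 3.76 and 4.12 FPKM at 4 h and at 7.64, 8.97 and 9.78 FPKM at 12 h in EX. In MT it was at 15.5, 9.49 and 13.4 FPKM and then at 6.67, 6.82 and 8.4 FPKM. The materials met at 12 h from opposite sides, and the difference of 1.73 log2 units missed the threshold (limma adjusted p = 0.0605). The step in EX kept its own call in 1 of 6 fits with 1 library fewer, the one without library 1 of 12 h. At 0 h in EX the gene was at 0.21 to 0.49 FPKM.

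LOC101256687 (chromosome 7, 3549481 to 3552802) was at 13.4, 11.1 and 11.5 FPKM at 4 h and at 5.37, 5.65 and 6.84 FPKM at 12 h in EX. In MT it was at 5.33, 4.16 and 5.42 FPKM and then at 10.2, 7.84 and 5.65 FPKM. The EX minus MT difference was -1.45 log2 units and did not pass (limma adjusted p = 0.159). The step in EX lost its own call in all 6 fits with 1 library fewer.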

How the results depend on the processing

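Against 63 calls in EX, 36 genes were called with all 18 libraries (26 of them among the 63), 36 with a pseudocount of 5 (35) and 17 with genes above 0 in 1 library tested (17). Without 1 library 9 to 61 genes were called, and of the 61, without library 1 of 12 h, 28 were among the 63. Of the 63 genes, 9 kept their call in all 6 of those fits and 34 in at least 1. No sign changed in any alternative. Since the 4 h and 12 h libraries did not overlap in any of the 63 genes, most alternatives could not change one. With the replicate block 15 genes were called (11 higher, 4 lower; 14 among the 63), and RAV2, ERF4, TCP20, TCP19 and CAB-10A were not among them. Same-numbered libraries of both times deviated with correlations of -0.277, 0.015 and -0.418 in EX and 0.233, -0.144 and 0.444 in MT. These values show no steady pairing by number and cannot exclude one. The other 5 alternatives called 45 to 62 genes, with 38 (of 56, in the fit of 12 libraries) to 61 among the 63, and the share of higher calls was 69.4% with all 18 libraries against 58.7%. The interaction count of 1 became 7 with all 18 libraries, 4 with genes above 0 in 1 library tested, and 0 with a pseudocount of 0.1, a filter of 5 FPKM or the replicate block. It was 0 to 75 without 1 library. The count of 54 genes with the same sign in MT lay between 52 and 60, under settings added after seeing the data. Of 390 list medians under alternatives, 3 moved by more than the spread between libraries: photosystem genes (-0.49 without library 2 of 4 h, -0.47 without library 1 of 12 h) and clock genes. The cause of these shifts was not tested. At 3 libraries a group, smaller changes may be missed.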

Other observations

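A few genes, picked after their values were seen, were uneven among the 12 h libraries of EX. TAS14, a dehydrin gene, stood at 42.9, 231 and 15.0 FPKM at 12 h, against 8.42, 7.08 and 14.5 at 4 h (log2 2.37, limma adjusted p = 0.27). TSW12, a lipid transfer protein gene, stood at 346, 647 and 221 FPKM, against 104, 124 and 164 at 4 h (log2 1.51, adjusted p = 0.148). Library 2 was the highest of the 12 h libraries in both genes, as it was in CBF1 and TSI-1. JA2, a NAC factor gene, was listed at 0 in 5 of the 6 libraries and at 31.0 FPKM in library 2 of 12 h. In MT, library 2 of 12 h was likewise the highest of its group in TAS14 (34.1 FPKM against 6.0 and 3.85) and TSW12 (451 FPKM against 101 and 48.8). For CBF1, however, it was the lowest, at 16.3 FPKM against 42.2 and 36.0. Heat shock cognate genes followed another library. Hsc70.1 was at 106 FPKM in library 1 of 12 h in EX and at 11.1 and 11.5 FPKM in the others, and Hsc70.2 was at 122 FPKM there and at 40.3 and 41.2 FPKM in the others. None of these genes was called. JA2 overlaps another gene model, so its level is uncertain.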
